A study of Homo sapiens with 15 samples.

Results

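Medroxyprogesterone acetate (MPA) was compared with progesterone (PROG) in the breast cancer cell line ZR-75-1, which is of human origin and hormone responsive. The comparison took in every array labelled MPA or PROG, 3 of each and 6 of the 15 arrays in all, and every probe set that the platform annotation pairs with a single gene symbol, 14841 of 34878. The MPA cells received 10 nM MPA for 6 h, and the PROG cells received 10 nM PROG for 6 h. The other 9 arrays served for context: 3 from cells given 10 nM DHT (read here as dihydrotestosterone, an androgen), 3 from cells given 10 nM DEX (dexamethasone, a synthetic glucocorticoid), and 3 from vehicle cells given 0.1% ethanol, which the sample titles also call untreated. All cells grew in RPMI-1640 with 10% FBS, and the labels do not say whether the serum had been stripped of steroids. The full compound names are the usual reading of the abbreviations. Nothing in the labels says that the 3 arrays of a group came from separate cultures, so every p-value below measures the spread between arrays, which may be technical.

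Progesterone is the natural ligand of the progesterone receptor, a nuclear receptor that binds DNA once it holds its hormone and switches target genes on or off. MPA is a synthetic progestin built on the progesterone skeleton, with an added methyl group and an added acetoxy group. It is known to have some androgen-like and glucocorticoid-like activity beside its progestin activity. The question addressed is which genes respond differently to the 2 progestins at the same dose and time.

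Values are log2 array signals as deposited, so a difference of 1 means a ratio of 2. Levels were not compared between genes, since probe sets differ in how brightly they bind. Array medians lay between 3.69 and 3.73, and a group whose mean lay below all of those medians was treated as too dim to read. Correlations over all probe sets were 0.9971 to 0.9978 between arrays of the same progestin and 0.9969 to 0.9977 between an MPA and a PROG array. The luminal markers GATA3, KRT18 and EPCAM were bright on all arrays of both groups, as in the lists below. The basal keratins KRT5 and KRT14, the fibroblast gene DCN and the endothelial genes VWF and KDR lay under the array medians. Some other markers of these cell types did not. Under the medians lay 2 of 5 measured basal markers, 3 of 4 fibroblast markers and 3 of 5 blood and endothelial markers. The basal markers SNAI2 and EGFR were among those not under the medians.

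Few single genes passed the test between MPA and PROG, and most of these differed in size of response. A shift over many progestin-responsive genes is given further below. Of the 14841 named probe sets, 43 (0.29%) differed between the progestins at an adjusted p under 0.05 in limma's moderated test with Benjamini-Hochberg adjustment over all of them, and these are called different below. MPA was higher in 35 (0.236%) and lower in 8 (0.0539%). Only 8 (0.0539%) differed by 1.5-fold or more, and all 8 were higher with MPA. The median difference over all probe sets was 0. In 42 of the 43 the MPA mean lay further from the vehicle mean than the PROG mean did, a description on the arrays that made the calls. The MPA and PROG arrays did not overlap in any of the 43, beside 1740 of all probe sets (11.7%).

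RANBP3L, a RAN-binding protein family member, showed the largest difference. Its levels were 5.88, 6.05 and 5.74 with MPA and 4.58, 4.59 and 4.25 with PROG, while the vehicle arrays, at 3.47, 3.53 and 3.59, lay under the array medians. The MPA arrays thus lay well above the PROG arrays, and both lay above vehicle. MPA exceeded PROG by 1.42 ± 0.097 (SE, n = 3 each), or 2.67-fold (95% interval 1.21 to 1.62 on the log2 scale, adjusted p = 1.25e-05). DHT gave 4.74, 4.94 and 4.68, close to the PROG arrays and far below the MPA arrays.

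THRSP (Spot 14), a regulator of fatty acid synthesis known from liver and mammary gland, read 5.44, 6.24 and 6.54 with MPA and 4.87, 5.07 and 4.87 with PROG. The difference was 1.14 ± 0.19 (SE, n = 3 each, adjusted p = 0.0187). This SE pools the spread of all 5 groups, while the SD was 0.57 with MPA and 0.12 with PROG. In a fit of the 6 progestin arrays alone the adjusted p was 0.349. The first MPA array stood well below the other 2, and the 3 PROG arrays overlapped the vehicle arrays at 4.99, 5.10 and 5.04. DHT gave 5.91, 5.92 and 5.82, within the range of the MPA arrays and above all vehicle arrays, a change from vehicle of 0.84 that was not called (adjusted p = 0.056). The call was lost without MPA array 2 (adjusted p = 0.0787), MPA array 3 (0.0593), PROG array 1 (0.104) or PROG array 3 (0.0957), while the difference stayed between 0.90 and 1.45.

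ATP13A4, a cation-transporting ATPase of the P5 family, was raised by MPA and stayed near vehicle with PROG. Levels were 6.14, 6.33 and 6.23 with MPA, against 5.31, 5.45 and 5.14 with PROG and 5.23, 5.27 and 5.21 with vehicle. MPA exceeded PROG by 0.93 ± 0.091 (SE, n = 3 each, 95% interval 0.74 to 1.13, adjusted p = 0.000255). PROG minus vehicle was 0.06 (adjusted p = 0.868), DHT minus vehicle 0.07 (0.877) and DEX minus vehicle −0.05 (0.903), so among the 4 compounds a change from vehicle was called with MPA alone. Over all probe sets, MPA was called higher than vehicle in 4.11% and PROG in 2.43%.

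UNC5B, a receptor for the guidance protein netrin, read 8.20, 8.16 and 8.12 with MPA and 7.18, 7.57 and 7.25 with PROG, against 6.46, 6.44 and 6.46 with vehicle. Both progestins raised it, and MPA exceeded PROG by 0.83 ± 0.08 (SE, n = 3 each, adjusted p = 0.000255). SGPP2, a phosphatase that acts on sphingosine-1-phosphate, read 7.10, 6.92 and 7.17 with MPA and 6.34, 6.56 and 6.32 with PROG, with vehicle at 5.10, 5.06 and 5.24. Its difference was 0.66 ± 0.11 (SE, n = 3 each, adjusted p = 0.0205), and the call was lost without MPA array 1 (0.0769), MPA array 3 (0.097), PROG array 1 (0.113) or PROG array 3 (0.102). For both genes, DHT and DEX gave no called change from vehicle.

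The remaining 3 genes past 1.5-fold were also raised by DHT. C1orf116 (SARG), an androgen-regulated gene of unknown biochemical role, read 9.02, 9.02 and 9.17 with MPA, 8.36, 8.37 and 8.22 with PROG, 10.20, 10.27 and 10.14 with DHT, 8.02, 7.97 and 8.07 with DEX, and 6.74, 6.71 and 6.72 with vehicle. The 5 groups did not overlap, with DHT highest and MPA next. MPA exceeded PROG by 0.75 ± 0.056 (SE, n = 3 each, adjusted p = 1.77e-05). CLDN8, a tight junction claudin, read 7.62, 7.60 and 7.49 with MPA and 6.91, 6.97 and 6.83 with PROG, a difference of 0.67 ± 0.085 (SE, n = 3 each, adjusted p = 0.00364). On DHT it read 7.63, 7.67 and 7.44, which overlapped the MPA arrays. PWWP3B, which encodes a PWWP-domain protein, read 5.97, 6.15 and 6.14 with MPA and 5.44, 5.41 and 5.38 with PROG, a difference of 0.68 ± 0.07 (SE, n = 3 each, adjusted p = 0.000407).

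**Figure D1:**
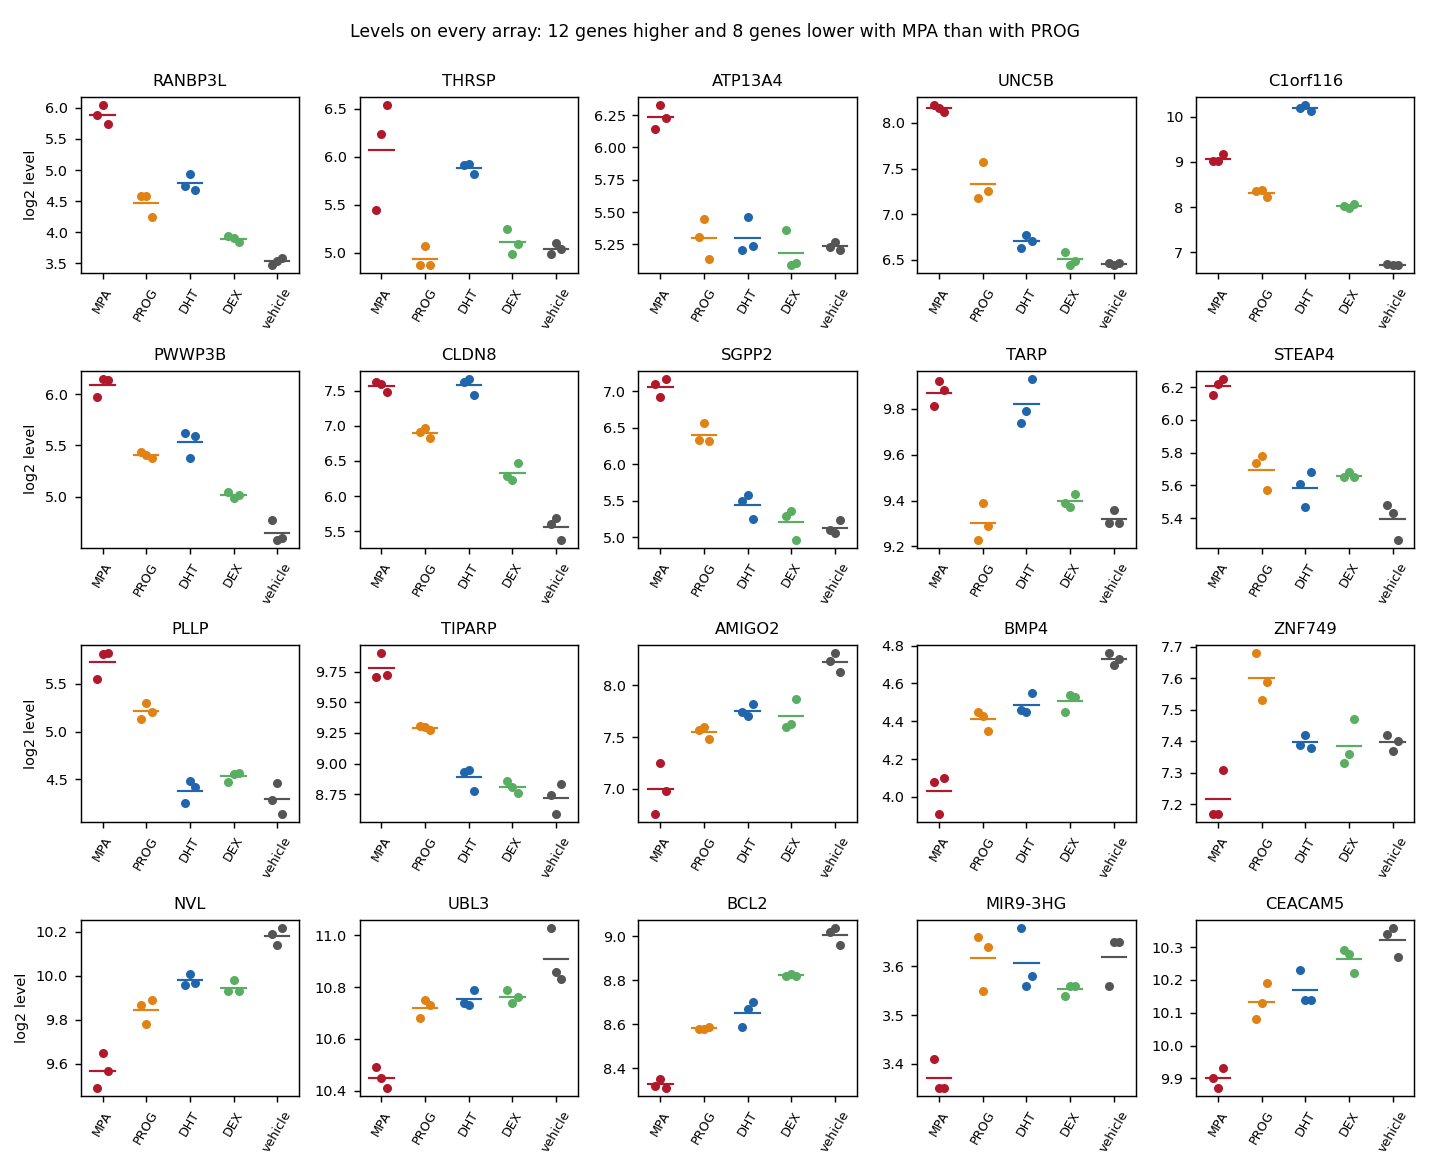
Log2 level on every array (points) and group mean (bars) for the 12 genes with the largest higher calls and the 8 genes with lower calls, in MPA, PROG, DHT, DEX and vehicle cells, each panel with its own vertical scale that does not start at 0. In all 20 panels the 3 MPA arrays are clear of the 3 PROG arrays, as in all 43 called probe sets. C1orf116 is highest with DHT, ATP13A4 stands off with MPA alone, and in ZNF749 the vehicle arrays lie between the progestins.

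TARP, a transcript read from within the T cell receptor gamma locus and known in prostate and breast cancer cells, read 9.81, 9.92 and 9.88 with MPA and 9.23, 9.39 and 9.29 with PROG. DHT gave 9.74, 9.79 and 9.93, and vehicle 9.30, 9.36 and 9.30. The PROG arrays covered the vehicle arrays and the DHT arrays overlapped the MPA arrays. MPA exceeded PROG by 0.57 ± 0.056 (SE, n = 3 each, adjusted p = 0.000255). Because TARP overlaps receptor gamma segments, its probe set may also read those.

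Promoter letters show what the upstream windows of such genes hold. RefSeq (GRCh38.p14) gives the 250 bases before the start of 36 of the 43 genes. The receptor half-site TGTTCT, searched on both strands (AGAACA on the other), was present in 12.4% of all 27305 promoters in that table, in 2 of 28 genes higher with MPA (7.14%) and in 1 of 8 lower ones (12.5%). The 2 were SGPP2 and PACSIN2, and the other was CEACAM5. The windows of RANBP3L (chr5:36301903-36302152, minus strand), the gene with the largest difference, and SGPP2 (chr2:222423738-222423987, plus strand), printed because it holds the half-site, are given 5′ to 3′ on the gene's strand, with the half-site in capitals.
RANBP3L: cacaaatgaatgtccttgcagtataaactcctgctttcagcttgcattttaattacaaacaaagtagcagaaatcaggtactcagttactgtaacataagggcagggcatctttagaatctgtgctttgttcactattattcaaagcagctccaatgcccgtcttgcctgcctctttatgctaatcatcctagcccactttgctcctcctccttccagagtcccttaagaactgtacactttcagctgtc
SGPP2: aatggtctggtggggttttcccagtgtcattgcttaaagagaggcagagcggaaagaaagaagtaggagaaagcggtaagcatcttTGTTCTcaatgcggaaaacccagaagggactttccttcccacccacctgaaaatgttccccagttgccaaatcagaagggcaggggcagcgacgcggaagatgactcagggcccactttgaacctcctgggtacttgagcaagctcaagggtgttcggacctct
The match in SGPP2 starts at offset −164 from the gene's start, and RANBP3L has none. These are letter matches in a short window, and a window without them says nothing of binding elsewhere.

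The 27 higher genes under 1.5-fold, TARP included, differed by 0.25 to 0.57. STEAP4, a metalloreductase, read 6.15, 6.22 and 6.25 with MPA and 5.74, 5.78 and 5.57 with PROG (difference 0.51 ± 0.069, SE, n = 3 each, adjusted p = 0.00549). TIPARP, an ADP-ribosyltransferase that restrains the aryl hydrocarbon receptor, read 9.71, 9.90 and 9.72 with MPA and 9.31, 9.30 and 9.27 with PROG (difference 0.48 ± 0.068, adjusted p = 0.00688). EAF2, an androgen-responsive elongation factor partner, read 8.83, 8.86 and 8.85 with MPA and 8.48, 8.46 and 8.36 with PROG (difference 0.41 ± 0.062, adjusted p = 0.0101). In each of the 3 the PROG arrays lay between the MPA and the vehicle arrays.

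Several of these genes encode metabolic enzymes. ACSL1, which activates long-chain fatty acids, read 9.20, 9.17 and 9.14 with MPA and 8.84, 8.86 and 8.72 with PROG, against 7.63, 7.68 and 7.57 with vehicle (difference 0.36 ± 0.05, SE, n = 3 each, adjusted p = 0.00549). HSD11B2, which inactivates cortisol, read 9.04, 8.95 and 8.93 with MPA and 8.58, 8.72 and 8.47 with PROG, against 7.26, 7.38 and 7.18 with vehicle (difference 0.38 ± 0.065, adjusted p = 0.0207). The other enzymes were GLUL, glutamine synthetase (0.26), CA2, a carbonic anhydrase (0.30), and ETNK2, an ethanolamine kinase (0.31).

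Others encode proteins that restrain growth signalling or transcription. LRIG1, which promotes turnover of ERBB receptors, read 9.69, 9.65 and 9.66 with MPA and 9.23, 9.36 and 9.25 with PROG (difference 0.39 ± 0.049, SE, n = 3 each, adjusted p = 0.00364). DDIT4, an mTORC1 inhibitor, read 8.09, 8.06 and 8.01 with MPA and 7.68, 7.74 and 7.67 with PROG (0.36 ± 0.054, adjusted p = 0.0111). BCL6, a transcriptional repressor, read 9.02, 8.97 and 9.12 with MPA and 8.69, 8.78 and 8.64 with PROG (0.33 ± 0.053, adjusted p = 0.0155). LDLRAD4, an inhibitor of TGF-beta signalling, was higher by 0.40 and SH3BP5, a JNK-binding protein, by 0.35. As in all 43 called probe sets, the MPA and PROG arrays of these 5 did not overlap, beside 11.7% of all probe sets.

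EGF, the ligand of the EGF receptor, read 7.78, 7.82 and 7.72 with MPA and 7.56, 7.45 and 7.53 with PROG (difference 0.26 ± 0.05, SE, n = 3 each, adjusted p = 0.046). The membrane and cytoskeleton genes were PLLP, plasmolipin (0.51), CALD1, the actin-binding caldesmon (0.45), FHDC1, a formin-family protein (0.44), SH3GL2, endophilin A1 (0.41), PDLIM1, an actin-associated LIM protein (0.30), RHOBTB3, a BTB-domain protein (0.26), and PACSIN2, a membrane-bending protein (0.25). CALD1 lay under the array medians in the DHT, DEX and vehicle cells. The last 5 were GREB1L (0.47), TMCC3 (0.36), TFCP2L1, a transcription factor of epithelial ducts (0.34), SCARNA10, a small Cajal body RNA (0.27), and PRR15 (0.25).

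**Figure D2:**
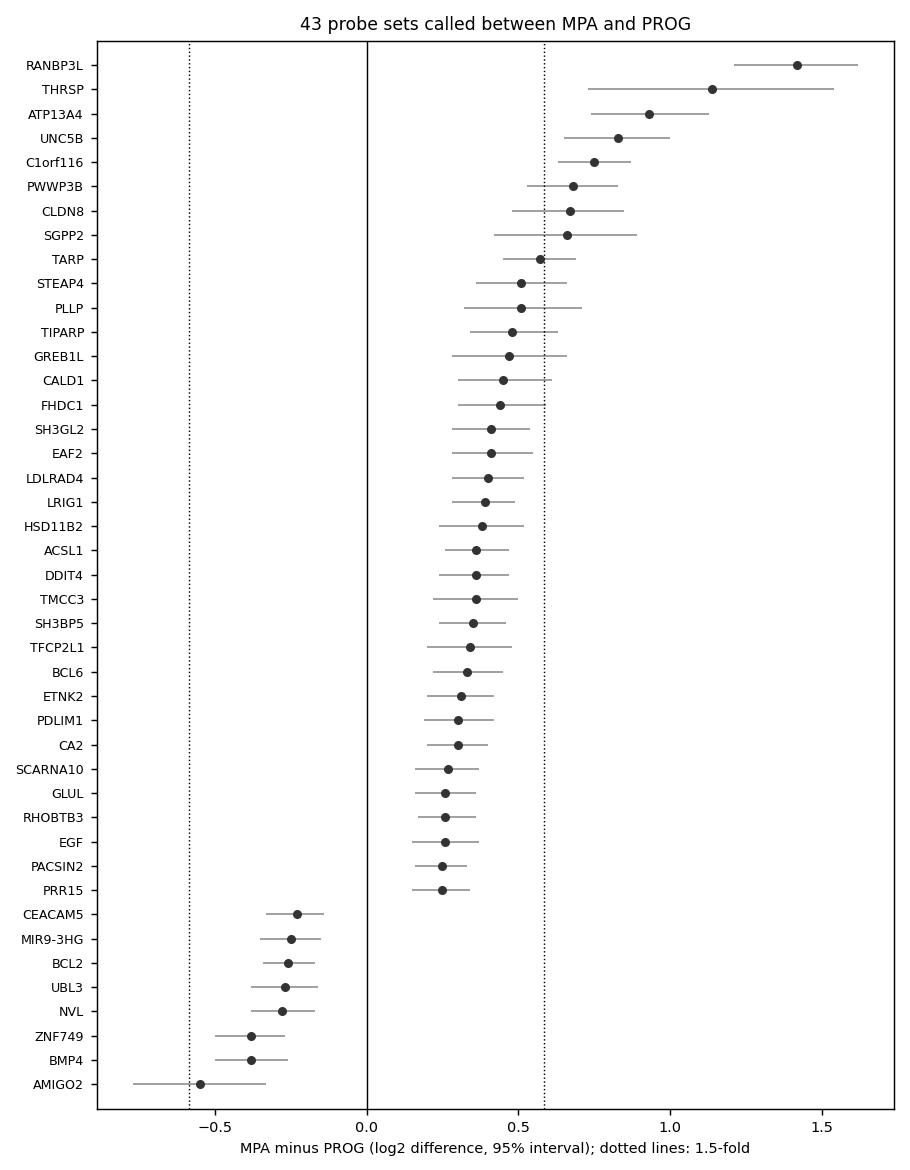
MPA minus PROG (log2 difference, point) with its 95% interval (line) for the 43 called probe sets, ordered by size, with dotted lines at 1.5-fold in either direction. The intervals of RANBP3L, THRSP, ATP13A4, UNC5B and C1orf116 lie wholly above the 1.5-fold line, and no lower gene's estimate passes it. Each interval pools the spread of all 5 groups. For THRSP the SD was 0.57 with MPA and 0.055 to 0.13 in the other groups, so its interval understates the spread with MPA.

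Among the lower genes, AMIGO2, an adhesion protein that promotes cell survival, showed the largest difference. It read 6.76, 7.25 and 6.98 with MPA and 7.57, 7.60 and 7.48 with PROG, against 8.24, 8.31 and 8.13 with vehicle. Both progestins lowered it, as MPA did 1.82% and PROG 0.391% of all probe sets, and MPA was 0.681 times PROG (difference −0.55 ± 0.10, SE, n = 3 each, adjusted p = 0.0383). This call was lost without any 1 of MPA arrays 1 (adjusted p = 0.114) and 3 (0.122) and PROG arrays 1 (0.147), 2 (0.135) and 3 (0.0957). The SE pools all 5 groups, while the SD was 0.25 with MPA and 0.062 with PROG. The 6 progestin arrays alone gave an adjusted p of 0.324.

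BMP4, a bone morphogenetic protein ligand, read 4.08, 3.91 and 4.10 with MPA and 4.45, 4.43 and 4.35 with PROG, against 4.76, 4.70 and 4.73 with vehicle (difference −0.38 ± 0.054, SE, n = 3 each, adjusted p = 0.00743, or 0.0522 without PROG array 1). BCL2, the founding inhibitor of mitochondrial cell death, read 8.32, 8.35 and 8.31 with MPA and 8.58, 8.58 and 8.59 with PROG, against 9.02, 9.04 and 8.96 with vehicle (difference −0.26 ± 0.039, adjusted p = 0.0112). The BCL2 groups were tight and fully apart, yet its call was lost without MPA array 3 (0.0593), PROG array 1 (0.0631) or PROG array 3 (0.0612). NVL, an AAA ATPase of ribosome assembly (−0.28), UBL3, a ubiquitin-like protein (−0.27), and CEACAM5, an adhesion glycoprotein (−0.23), followed the same order of MPA below PROG below vehicle in their group means.

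ZNF749, a zinc finger gene, had its vehicle level between those of the progestins. It read 7.17, 7.17 and 7.31 with MPA and 7.68, 7.53 and 7.59 with PROG, and the vehicle arrays, at 7.42, 7.37 and 7.40, fell between them. MPA minus PROG was −0.38 ± 0.053 (SE, n = 3 each, adjusted p = 0.00617), while neither MPA minus vehicle (−0.18, adjusted p = 0.0685) nor PROG minus vehicle (0.20, adjusted p = 0.0628) was called. MIR9-3HG, a microRNA host transcript (−0.25), was below the array medians in each of the 5 groups, and its call rests on signal too dim to read.

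The calls depended on single arrays. With each of the 6 progestin arrays left out in turn, 14 of the 43 were called every time, of which 13 were higher with MPA: RANBP3L, ATP13A4, UNC5B, C1orf116, PWWP3B, CLDN8, TARP, STEAP4, TIPARP, SH3GL2, LDLRAD4, LRIG1 and ACSL1. ZNF749 was the 1 lower gene among them. The other 29 lost their call without at least 1 array, with highest adjusted p between 0.0522 and 0.233, and the total fell to 22 without MPA array 3, 17 without PROG array 1 and 19 without PROG array 3. The 8 lower calls fell to as few as 1, without PROG array 1. A fit of the 6 progestin arrays alone, whose error estimate has fewer degrees of freedom, called 7, all higher: RANBP3L, ATP13A4, C1orf116, PWWP3B, CLDN8 and TARP from the 43, and AQP3, a water and glycerol channel (0.55, adjusted p = 0.0224, against 0.0559 over all arrays).

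The wider progestin response was examined next with the mean of MPA and PROG minus vehicle, a contrast orthogonal to MPA minus PROG. By that mean 115 probe sets (0.775%) were raised and 4 (0.027%) were lowered by at least 1.5-fold. Of the 115 raised, 108 were higher with MPA than with PROG and 7 were lower, beside 48.4% higher over all probe sets. The median of MPA minus PROG was 0.20 in the raised set and 0 over all. Against vehicle the raised set had a median of 0.89 with MPA and 0.69 with PROG. MPA was called higher in 22 of the 115 (19.1%, against 0.236% of all) and lower in 0 by limma, with either error prior. At an unadjusted p under 0.05 it was higher in 70 and lower in 1, against 4.33% higher and 4.18% lower of all probe sets. All MPA arrays lay above all PROG arrays in 69 of the 115 and below them in 1, against 5.87% above and 5.86% below of all. The called share also draws on the error estimate that both contrasts share for each gene, which the medians do not. The 22 calls became 14 without MPA array 2, 13 without MPA array 3, 10 without PROG array 1 and 11 without PROG array 3, while the median stayed between 0.19 and 0.24.

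The 4 lowered probe sets were AMIGO2, HEY2, ESR1 and PGR, and all 4 had a lower mean with MPA than with PROG, of which AMIGO2 alone was called. ESR1, the estrogen receptor alpha gene, read 7.29, 7.25 and 7.31 with MPA and 7.64, 7.53 and 7.41 with PROG, against 7.97, 8.16 and 8.02 with vehicle. Its progestin arrays did not overlap, but the difference of −0.24 was not called (95% interval −0.38 to −0.10, adjusted p = 0.206). PGR, the progesterone receptor gene itself, read 7.63, 7.69 and 7.66 with MPA and 7.78, 7.69 and 7.68 with PROG, against 8.34, 8.33 and 8.22 with vehicle. The difference of −0.06 had an interval of −0.18 to 0.06 (adjusted p = 0.845). HEY2, a Notch target repressor, differed by −0.32 (95% interval −0.51 to −0.13, adjusted p = 0.242), and without PROG array 2 by −0.44 (adjusted p = 0.0257).

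Several of the strongest progestin-raised genes showed no called difference. EMP1, an epithelial membrane protein, read 7.34, 7.41 and 7.50 with MPA and 7.31, 7.28 and 7.49 with PROG, against 5.47, 5.66 and 5.40 with vehicle. Its difference of 0.06 had a 95% interval of −0.13 to 0.25, which leaves out a 1.5-fold difference either way. ZBTB7C, a BTB zinc finger factor, read 6.81, 7.03 and 7.19 with MPA and 6.64, 7.10 and 6.62 with PROG, against 4.68, 4.62 and 4.88 with vehicle (difference 0.22, interval −0.04 to 0.48). Its progestin arrays overlapped. The 3 raised genes with the smallest differences were ITPKB, an inositol trisphosphate kinase (95% interval −0.14 to 0.13), CALML5, a calmodulin-like protein of skin (−0.25 to 0.26), and SCEL, sciellin of the epithelial envelope (−0.21 to 0.26). ITPKB read 8.06, 8.12 and 7.98 with MPA and 7.92, 8.20 and 8.05 with PROG, against 7.26, 7.26 and 7.25 with vehicle.

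FKBP5, a co-chaperone of steroid receptors, read 6.52, 6.52 and 6.18 with MPA and 6.09, 6.09 and 6.12 with PROG, against 4.48, 4.43 and 3.83 with vehicle. The difference of 0.31 had a wide interval of 0.02 to 0.59 (adjusted p = 0.551), the upper end of which reaches 1.5-fold. PER1, a circadian repressor, differed by 0.38 (interval 0.16 to 0.60, adjusted p = 0.234), and THBS1, thrombospondin 1, by 0.24 (0.13 to 0.36, adjusted p = 0.0889, or 0.0233 with a trended robust prior and 0.0465 after quantile normalization). These intervals lie above 0 before any adjustment for the number of genes.

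HS3ST6, a heparan sulfate sulfotransferase, was the raised gene furthest in the opposite direction. It read 5.84, 5.97 and 5.86 with MPA and 6.55, 6.33 and 6.27 with PROG, against 5.63, 5.63 and 5.12 with vehicle. All MPA arrays lay below all PROG arrays, and the difference of −0.49 was not called (95% interval −0.75 to −0.23, adjusted p = 0.15).

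**Figure D3:**
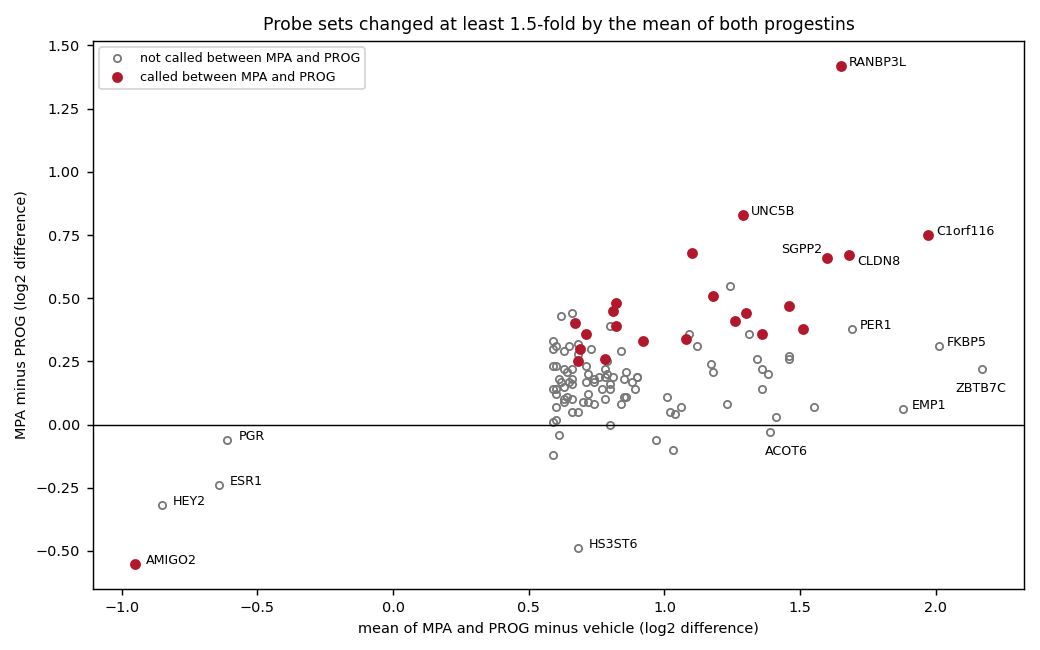
Each point is 1 of the 119 probe sets changed at least 1.5-fold by the mean of both progestins, with that mean minus vehicle on the horizontal axis and MPA minus PROG on the vertical axis, both as log2 differences. Filled red points are called between MPA and PROG. Among the 115 raised probe sets, 108 lie above the line at 0, and HS3ST6 is the lowest of the 7 below it.

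The wider sets at an adjusted p under 0.05 with no fold limit, added after the data were seen, behaved alike. Of 590 probe sets (3.98%) raised by the mean of both progestins, 501 were higher with MPA, with a median difference of 0.10. Of 207 lowered ones (1.39%), 183 were lower with MPA, with a median of −0.10. MPA was called higher in 34 of the raised (5.76%) and called lower in 6 of the lowered (2.90%), against 0.236% and 0.0539% of all.

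DHT and DEX show how the 43 genes behaved under an androgen and a glucocorticoid, on arrays that enter the MPA and PROG calls only through the error estimate. Of the 35 genes higher with MPA, DHT raised 12 (34.3%, against 0.775% of all probe sets) and lowered 0 by limma. At an unadjusted p under 0.05 DHT raised 24 and lowered 0, beside 836 and 633 of all 14841. The median change from vehicle with DHT was 0.19. DEX raised 13 (37.1%, against 0.957%) and lowered 0, with a median of 0.15. Unadjusted, DEX raised 21 and lowered 0, beside 1037 and 509 of all. Both contrasts use the same vehicle arrays and the same error estimate for each gene. The MPA and PROG calls use that error estimate too, so the called counts are not independent of the choice of genes. DHT was higher than vehicle on average in 31 of the 35 and DEX in 32, beside 7192 and 8033 of all 14841. MPA was called higher than vehicle in all 35 and PROG in 28. Progestin-raised genes are thus a nearer comparison than all probe sets, and their share was not counted. Among progestin-raised genes without a called difference, DHT and DEX both raised some, such as ITPKB and ANKRD22. DEX alone was called to raise others, such as EMP1, HILPDA, FOSL2 and NAV2. Neither compound was called to raise ACOT6 or P3H2, among others. Whether the shares are particular to the genes higher with MPA was not tested. The count of 12 fell to 7 without PROG array 1 and 6 without PROG array 3, and that of 13 to between 4 and 8 without MPA array 2 or 3, PROG array 1 or 3, DHT array 1, DEX array 1 or 3, or vehicle array 1 or 2.

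The 35 genes fell into 4 kinds by these calls. DHT and DEX both raised 9: C1orf116, CLDN8, PWWP3B, EAF2, FHDC1, HSD11B2, BCL6, GLUL and PRR15. A rise with DHT alone was called for RANBP3L, LRIG1 and TARP, and a rise with DEX alone for DDIT4, TFCP2L1, RHOBTB3 and SCARNA10. No change from vehicle was called with either compound for the other 19, which include UNC5B, ATP13A4, SGPP2, THRSP, TIPARP, GREB1L and ACSL1.

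A direct comparison of DHT with DEX separated some of them. DHT was called higher than DEX for 7 of the 35 (20%, against 0.256% of all): RANBP3L, C1orf116, PWWP3B, CLDN8, TARP, EAF2 and PRR15. DEX was called higher than DHT for 4 (11.4%, against 0.398%): DDIT4, TFCP2L1, BCL6 and RHOBTB3. Such calls also occurred among progestin-raised genes with no called difference between MPA and PROG, whose share was not counted. There DEX was higher than DHT for EMP1, HILPDA and NAV2, for example, and DHT higher than DEX for ANKRD22. LRIG1 and SCARNA10 were not called between DHT and DEX. In BCL6 the DEX arrays, at 8.99, 8.96 and 8.95, sat beside the MPA arrays, at 9.02, 8.97 and 9.12, while DHT gave 8.43, 8.58 and 8.45.

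The size of the DHT response varied among the 7. C1orf116 rose by 3.48 with DHT, above its 2.35 with MPA and 1.59 with PROG, and CLDN8 rose by 2.03 with DHT, 2.02 with MPA and 1.35 with PROG. RANBP3L rose by 1.26 with DHT, well under its 2.36 with MPA, and by 0.94 with PROG. ACSL1 shows the contrary case, since it rose by 1.54 with MPA and 1.18 with PROG but differed from vehicle by 0.11 with DHT (adjusted p = 0.474) and 0.11 with DEX (0.459). These changes from vehicle share the vehicle arrays and are given side by side only.

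For a few of the 35, PROG gave no called change from vehicle while MPA did. These were THRSP, ATP13A4, TARP, SH3GL2, SCARNA10, TMCC3 and SH3BP5, with PROG minus vehicle of −0.11, 0.06, −0.02, 0.06, 0.03, 0.21 and 0.15 in that order. The contrasts share the PROG arrays, and the difference between MPA and PROG is the tested one. Among the 8 lower genes, DHT lowered AMIGO2 and BCL2 (25%, against 0.115% of all) and DEX lowered AMIGO2, BCL2 and NVL (37.5%, against 0.148%). MPA was called lower than vehicle in 7 of these 8 and PROG in 5. Progestin-lowered genes are thus a nearer comparison than all probe sets, and their share was not counted.

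**Figure D4:**
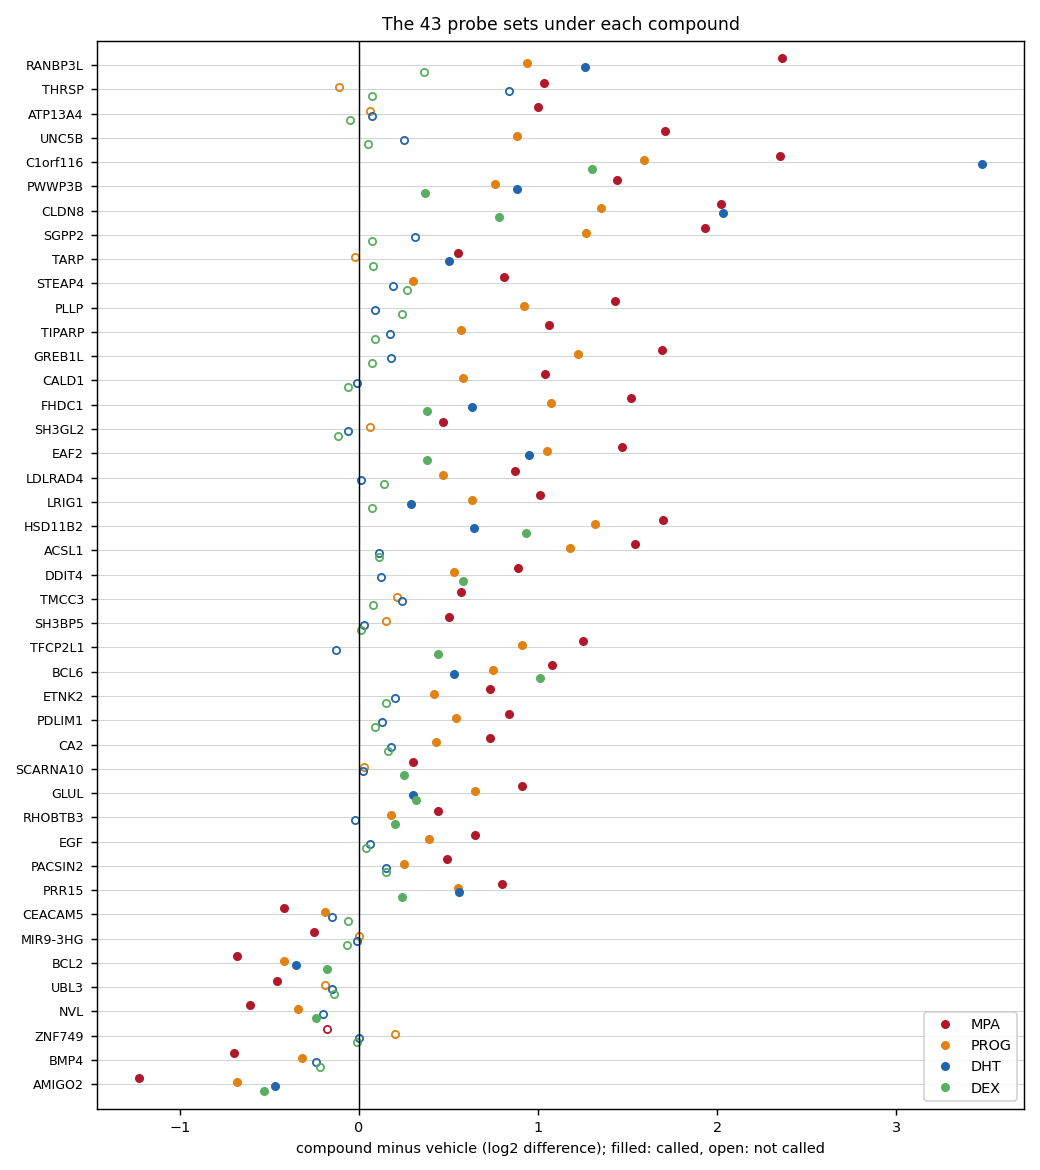
Change from vehicle (log2 difference) of the 43 called probe sets with MPA, PROG, DHT and DEX, filled where called against vehicle and open where not. The MPA point lies to the right of the PROG point in the 35 upper rows and to its left in the 8 lower rows. The DHT point of C1orf116, at 3.48, is the furthest right.

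The gene lists described next were assembled with earlier results of these arrays known, so a list is not independent evidence of its direction, least so through RANBP3L, SGPP2, ZBTB7C and EMP1 in the progestin list and C1orf116 and EAF2 in the androgen list. Of 22 measured androgen-induced genes 4 were called higher (C1orf116, CLDN8, STEAP4 and EAF2) and 0 lower by limma, against 0.236% higher and 0.0539% lower of all probe sets. At an unadjusted p under 0.05, 10 were higher and 0 lower, against 4.33% and 4.18% of all. The list median was 0.19 against 0 over all probe sets, with 19 members above 0 and 3 below. It was not above the median of 0.20 of the 115 progestin-raised probe sets, which include C1orf116, CLDN8 and EAF2. Of the 4 called members, STEAP4 alone had no called change from vehicle with DHT here (0.19, adjusted p = 0.32). KLK2 and KLK3, classical androgen targets of prostate, were both below the array medians in each of the 5 groups. PIP, an androgen-responsive secreted protein, read 8.12, 8.14 and 8.34 with MPA and 8.0, 8.10 and 8.12 with PROG (difference 0.13, interval −0.02 to 0.27).

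Of 27 measured glucocorticoid-induced genes 4 were called higher (ACSL1, DDIT4, TFCP2L1 and BCL6) and 0 lower, against 0.236% and 0.0539% of all probe sets. The list median was 0.15, beside 0.20 for the 115 progestin-raised probe sets, and 23 members lay above 0. Without any adjustment, 14 members passed a p of 0.05 as higher and 1 as lower, against 4.33% and 4.18% of all. Of the 4 called members, ACSL1 alone had no called change from vehicle with DEX here (0.11, adjusted p = 0.459). KLF9, a hormone-responsive zinc finger factor, read 7.23, 6.99 and 7.29 with MPA and 6.94, 7.02 and 6.88 with PROG, overlapping arrays with a difference of 0.22 that was not called (interval 0.03 to 0.42). SGK1, a kinase that regulates sodium transport, lay under the array medians.

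Of 33 measured progestin-induced genes 3 were called higher (RANBP3L, SGPP2 and HSD11B2) and 0 lower, against 0.236% and 0.0539% of all probe sets, with a list median of 0.057 and 25 members above 0. Unadjusted, 12 were higher and 0 lower, against 4.33% and 4.18% of all. Of 27 measured estrogen-induced genes BCL2 alone was called, as lower, against 0.0539% lower of all probe sets, and the median was 0.03. The BCL2 gene was also the 1 call in the BCL2 family list of 18, whose median was 0.02.

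In other lists 1 or 2 members each were called, against 0.236% higher and 0.0539% lower of all probe sets. Of 25 genes for fatty acid activation, synthesis and storage, THRSP and ACSL1 were called higher, with a median of 0.037. Of 18 epithelial transport and junction genes, ATP13A4 and CLDN8 were called higher, with a median of −0.017. UNC5B was called higher and AMIGO2 lower among 25 axon guidance ligands and receptors (median 0.02). EGF was the 1 call among 30 growth factor genes (0.035), BCL6 among 23 Kruppel-like and BTB factors (0.057), and HSD11B2 among 12 steroid metabolism enzymes (0.045).

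No member was called by limma in several lists, whose unadjusted counts stand against 4.33% higher and 4.18% lower of all probe sets. Of 28 immediate early genes 0 were called, with 8 higher and 0 lower at an unadjusted p under 0.05 and a median of 0.058. Of 17 receptor and co-regulator genes 0 were called (4 higher and 2 lower unadjusted, median −0.01), and of 14 circadian clock genes 0 (2 and 2, median −0.033). Of 35 G1-S and mitotic genes 0 were called and 0 passed unadjusted in either direction, with differences between −0.11 and 0.11. The 10 metallothioneins (2 and 0), 17 sterol synthesis genes (1 and 0) and 17 chemokine and NF-kB genes (0 and 2) likewise had 0 calls. A fit with a trended, robust error prior also called 0 in each of these 7 lists. Of 23 Notch genes 0 were called (2 and 3 unadjusted), and that other fit called 1.

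Markers of other cell types were checked as sums of linear signal. The 12 luminal markers summed to 16107 to 16503 on the MPA arrays and 16072 to 16555 on the PROG arrays. The 5 basal markers summed to 301 to 316 with MPA and 264 to 273 with PROG, the difference being carried by SNAI2 and EGFR while KRT5 and KRT14 stayed under the array medians. The 4 fibroblast markers, 3 of them under the array medians, summed to 46 to 47 with MPA and 47 to 51 with PROG, and the 5 blood and endothelial markers, 3 of them under the medians, to 260 to 296 with MPA and 245 to 264 with PROG. Of these markers limma called 0, with 2 higher and 2 lower luminal markers, 2 higher basal, 1 higher fibroblast and 2 higher blood and endothelial markers at an unadjusted p under 0.05. Of 7 housekeeping genes 0 were called and 1 was lower unadjusted. The part of these shifts in the results was not tested. Over all 24 lists 17 genes were called, and 9, 8 and 7 without MPA array 3, PROG array 1 and PROG array 3 in that order.

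**Figure D5:**
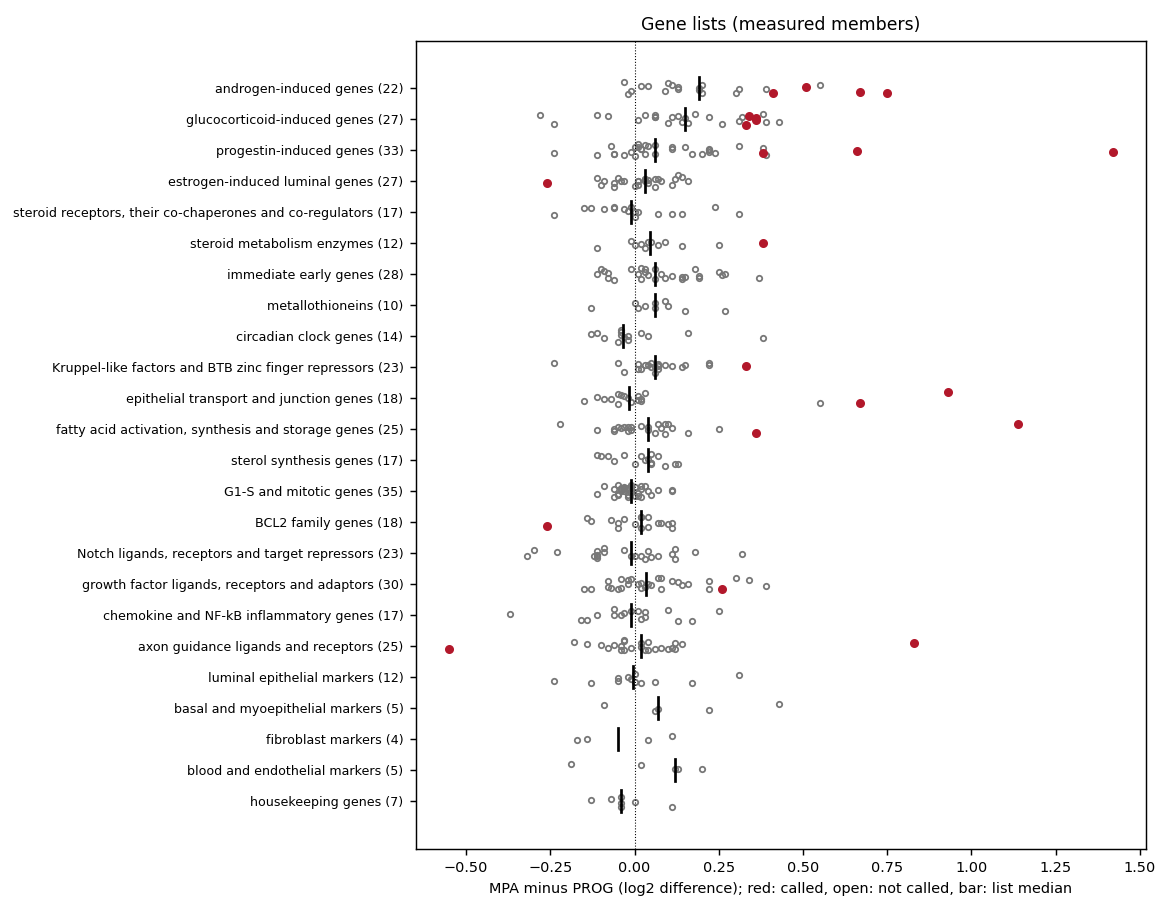
MPA minus PROG (log2 difference) of every measured member of the 24 gene lists, with the number measured in brackets, the list median as a bar and called members in red. The androgen-induced and glucocorticoid-induced lists have the highest medians of the 24, 0.19 and 0.15. The 115 probe sets raised by the mean of both progestins had a median of 0.20. The 35 cell cycle genes cluster within 0.11 of 0.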

How the data were processed

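Total RNA of 15 ZR-75-1 samples was amplified, labelled with biotin and hybridised to Affymetrix arrays, per the labels' protocols. The deposited table holds log2 values of 34878 probe sets, and the submitters' processing notes name Partek and RMA, with no versions. Which background correction, filter or build was used is not given in the sources at hand. RMA brings all arrays to a similar distribution, which hides a shift shared by most genes and can shrink changes of dim probe sets. No depth exists for arrays, and their number limits the precision.

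The platform annotation gave 14841 probe sets 1 symbol (14361 genes, 405 with several probe sets), 0 several, and left 20037 unnamed here. Where a gene had several, each probe set was tested, and lists used the brightest. Groups and replicate numbers came from the sample titles.

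Values were used as deposited, without a filter. limma 3.58.1 in R 4.3.3 (lmFit, eBayes) fitted 5 group means over all 15 arrays (10 residual degrees of freedom, prior 3.81), since the groups share 1 estimate of the spread. Tests were 2-sided, with Benjamini-Hochberg adjustment over the 14841 named probe sets within each contrast, and intervals are unadjusted 95% intervals. An exact permutation of 3 against 3 arrays cannot go below 0.10. The fit was tested on simulated data before use. MPA and PROG were the pair of compounds compared, and DHT was set against DEX and each compound against vehicle for context. Named genes were the 12 largest calls in each direction (8 lower exist), up to 4 called members per list, the 3 raised and 3 lowered progestin-responsive genes with the smallest differences, and a fixed set of 16 hormone-response genes, not all of which are reported here, and all others were named after their values were seen. The members and lists were chosen with earlier results of these data known. Alternatives were the 6 progestin arrays alone, the replicate number as a block, a trended robust prior, quantile normalization, a filter on dim probe sets, adjustment over all probe sets, a 2-fold limit and leaving out each array. Promoter sequences are from RefSeq (GRCh38.p14), using the first entry per gene.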

Additional observations from a re-analysis of the deposited data

Results flagged for a closer look

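The 20037 probe sets without a name here were outside the comparison. In a fit over all 34878 probe sets, 19 of them (0.0948%) were called between MPA and PROG, of which 18 were higher with MPA and 1 lower, with a largest difference of 0.82 on the log2 scale. They are given because they lie outside the named probe sets that the report describes. Their genes are not named in the tables used here.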

How the results depend on the processing

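Of the 27 called genes given by the naming rule, 0 changed direction in any alternative run. Of those not called, ITPKB, CALML5 and SCEL, all within 0.03 of 0 as reported, changed sign in at least 1 alternative, reaching at most 0.11 in size. Over the 40 genes given by the rule and all alternatives, 688 results were on the same side of the threshold, 146 no longer past it and 3 newly past it. The cause of changed counts was not tested, except that the 6 progestin arrays alone have fewer residual degrees of freedom. That fit called 7 probe sets, 7 higher and 0 lower (542 lower at an unadjusted p under 0.05), with 5 at 1.5-fold or more and 5 list members. A trended robust prior called 72, with 53 higher and 19 lower, and among its higher ones 24 were raised by DHT and 22 by DEX. Leaving out dim probe sets gave 14 lower calls, and adjusting over all probe sets gave 3 lower calls and 8 higher ones raised by DEX. A 2-fold limit on the mean of both progestins gave a raised median of 0.29 with 13 called, and no lowered set with a median. Quantile normalization called 46.

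Replicate numbers did not pair the arrays: deviations of same-numbered arrays correlated between −0.054 and 0.067 over all group pairs, and between −0.039 and −0.004 for MPA and PROG. With the replicate number as a block 36 probe sets were called, 31 higher and 5 lower.

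Without 1 MPA or PROG array at a time, total calls ranged from 17 to 38, higher calls from 15 to 33, lower calls from 1 to 9 and calls at 1.5-fold from 6 to 10. The median of the raised set ranged from 0.19 to 0.24 with 10 to 21 called, and that of the lowered set from −0.38 to −0.19. Higher genes raised by DHT ranged from 6 to 12, those raised by DEX from 4 to 10, and called list members from 7 to 17. Without 1 vehicle, DHT or DEX array, alternatives added after the data were seen, total calls ranged from 34 to 45, higher from 29 to 36, lower from 4 to 9, list members from 14 to 16, raised calls from 19 to 22, DHT-raised from 10 to 13 and DEX-raised from 6 to 11. Calls at 1.5-fold stayed at 8, the raised median at 0.20 to 0.21 and the lowered median at −0.28 to −0.24.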
